A study of Mus musculus with 10 samples.

Results

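Mitochondrial ribosomal protein genes were taken as all annotated rows of the deposited expression table whose mouse symbol begins with Mrpl or Mrps followed by a number. The rule found 76 genes among the 23111 named genes, 48 named for the large subunit (Mrpl) and 28 for the small subunit (Mrps), each with 1 row. They were measured in 5 colon tumour samples from Ucp2-/- (KO) mice and 5 from Ucp2+/+ (WT) mice, all of strain C57BL6/J and all given AOM/DSS, in which the carcinogen azoxymethane is combined with dextran sodium sulphate, a polymer that injures the colon lining. Tumours were taken at week 15 of the protocol. The labels number WT replicates 1 to 5 and KO replicates 6 to 10, and give no age, sex or litter of the animals. They do not say how the Ucp2 allele was made or whether any of the samples share an animal. The p-values therefore measure only the spread between these samples, which may be technical in part.

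The mitochondrial ribosome is built from rRNAs encoded in mitochondrial DNA and from proteins encoded in the nucleus, made in the cytosol and imported. It translates the few proteins that mitochondrial DNA encodes, which are subunits of the respiratory chain and of ATP synthase. Its small subunit reads the mRNA, its large subunit joins the amino acids, and its proteins are of 2 kinds, relatives of bacterial ribosomal proteins and proteins found only in mitochondria. Ucp2, the deleted gene, encodes a carrier of the inner mitochondrial membrane, and the comparison asked whether its loss goes with another level of these mRNAs in the tumours.

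An array value is a log2 signal, so a difference of 1 is a doubling, and values of different genes cannot be set against each other as amounts of mRNA. Array medians lay between 5.84 and 5.93. The row that carries the gene number of Ucp2, which the annotation leaves unnamed, had 9.97, 9.73, 9.73, 9.82 and 9.97 in KO tumours against 10.84, 11.39, 11.19, 11.55 and 11.52 in WT tumours, and each KO value was below each WT value, with a difference of -1.45 ± 0.13 (SE; limma adjusted p = 0.00576 over all 23747 rows). All 11 epithelial marker genes measured, among them Epcam, Krt8, Vil1 and Cdx2, exceeded in all 10 arrays a guide to background of 5.14, below which lay the mean signals of 95% of 1088 genes for olfactory receptors. Of the 76 ribosomal genes 75 had a mean signal above the same guide, and Mrps36 (4.33) was the exception. In bulk tumour, fewer cells of a type and less RNA per cell cannot be told apart.

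Promoter sequences are shown for the members on which the results below turn. RefSeq's table of windows from 250 bases before to 50 bases after a gene's start (build GRCm38.p6) matched 67 of the 76 members by gene number. The windows are those of the member with the smallest p in each subunit, Mrpl3 (chr9:105053018-105053317, plus strand) and Mrps31 (chr8:22411090-22411389, plus strand), of the member in each subunit whose course over the tumours followed the other members most closely among those with a window, Mrpl21 (chr19:3282792-3283091, plus strand) and Mrps7 (chr11:115603890-115604189, plus strand), and of Mrps11 (chr7:78782881-78783180, plus strand), whose start lies 42 bases from that of another member. Capitals mark matches, on either strand, to CCGGAAG, the core bound by ETS factors such as GABP, to GCGCANGCG, part of the site of NRF1, or to AAGATGGC, part of the site of YY1. These factors are known activators of genes for mitochondrial proteins.
Mrpl3: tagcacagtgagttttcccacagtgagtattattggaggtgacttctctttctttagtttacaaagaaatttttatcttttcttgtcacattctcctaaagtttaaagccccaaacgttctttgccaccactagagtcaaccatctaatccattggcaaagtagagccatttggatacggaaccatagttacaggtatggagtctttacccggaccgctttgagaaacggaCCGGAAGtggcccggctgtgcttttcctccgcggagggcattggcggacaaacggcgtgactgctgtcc
Mrps31: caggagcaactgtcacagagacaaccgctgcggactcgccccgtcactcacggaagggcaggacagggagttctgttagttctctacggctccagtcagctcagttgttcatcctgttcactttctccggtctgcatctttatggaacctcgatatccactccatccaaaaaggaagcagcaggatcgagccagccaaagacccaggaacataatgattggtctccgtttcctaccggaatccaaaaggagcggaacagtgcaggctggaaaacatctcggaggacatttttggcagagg
Mrpl21: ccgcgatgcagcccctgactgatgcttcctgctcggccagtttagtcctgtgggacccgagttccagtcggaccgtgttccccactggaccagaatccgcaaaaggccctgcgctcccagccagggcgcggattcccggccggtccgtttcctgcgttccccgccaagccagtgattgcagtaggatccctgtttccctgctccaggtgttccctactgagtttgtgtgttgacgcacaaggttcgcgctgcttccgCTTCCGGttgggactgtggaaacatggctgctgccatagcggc
Mrps7: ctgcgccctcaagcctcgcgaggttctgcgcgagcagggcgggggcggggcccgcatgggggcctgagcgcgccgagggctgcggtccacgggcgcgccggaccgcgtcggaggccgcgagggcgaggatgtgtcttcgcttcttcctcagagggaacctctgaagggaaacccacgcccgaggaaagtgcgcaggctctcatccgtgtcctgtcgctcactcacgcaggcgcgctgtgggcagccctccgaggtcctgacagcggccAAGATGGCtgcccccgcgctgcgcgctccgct
Mrps11: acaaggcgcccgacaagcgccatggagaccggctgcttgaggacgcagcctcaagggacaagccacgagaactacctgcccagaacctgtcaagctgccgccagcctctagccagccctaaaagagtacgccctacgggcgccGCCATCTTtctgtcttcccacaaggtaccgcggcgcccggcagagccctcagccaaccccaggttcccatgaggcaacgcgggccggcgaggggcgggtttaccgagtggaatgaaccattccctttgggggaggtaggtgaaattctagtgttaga

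The windows of Mrpl3 and Mrpl21 each held 1 ETS core, those of Mrps7 and Mrps11 each held 1 YY1 match, and that of Mrps31 held none of the 3. Over the members with a window, 24 of 67 (35.8%) held the ETS core, against 12.8% of the 17491 tested genes with a window and 8.86% of all 32851 windows in the table. The NRF1 letters were in 16 members (23.9%, against 9.73% of tested genes and 6.25% of windows), and the YY1 letters were in 12 (17.9%, against 3.59% and 2.75%). At least 1 of the 3 was present in 42 members, or 62.7%, against 22.8% of tested genes, and in 0 members did an ETS match overlap a YY1 match. By subunit the ETS core was in 14 of 42 large and 10 of 25 small subunit genes, and the NRF1 letters were in 12 and 4. Of 4 further motifs, the TATA box TATAAA was in 7.46% of members and 14.1% of tested genes, the E-box CACGTG in 5.97% and 9.22%, the CCAAT box CCAAT in 40.3% and 41.9%, and the GC box GGGCGG in 49.3% and 49.8%. These shares describe letters in a window, and no binding was measured here. The 7 motifs were chosen after a first look at their shares, so the excess over tested genes is description only.

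Many members also start next to another gene. In 24 of the 67 members (35.8%) a gene on the opposite strand started within 1000 bases and was read the other way, against 14.1% of the tested genes. Some partners serve mitochondria as well: Mrpl47 stands beside Ndufb5, a subunit of respiratory complex I, Mrpl43 beside Twnk, the helicase of mitochondrial DNA, and Mrps12 beside Sars2, the mitochondrial seryl-tRNA synthetase. Mrps11 and Mrpl46, 1 gene of each subunit, start 42 bases apart. Over the 10 arrays their deviations from the genotype means had a Pearson r of -0.40. It came to -0.19 without WT replicate 3 and to -0.26 without WT replicate 4.

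Between genotypes the 76 genes differed little. Of the large subunit genes 25 had a positive and 23 a negative difference (KO minus WT), and of the small subunit genes 12 and 16. Over all genes 9757 were positive and 13354 negative, so 42.2% were positive. The median difference was 0.0022 over the large and -0.017 over the small subunit genes, against -0.019 over all genes, and with quantile normalization repeated the large subunit median was -0.012. By limma 0 of the 76 passed an adjusted p of 0.05, as did 0 (0%) of all 23111 genes, and the smallest adjusted p of a member was 0.910. At an unadjusted p under 0.05 there were 5 members (6.58%), where 4.77% of all genes lay. Of these 5, 1 had more signal in KO (1.32% of members, against 2.22% of all genes) and 4 had less (5.26%, against 2.55%). In 0 members did the values of the 5 KO and 5 WT tumours separate without overlap, against 0.835% of all genes. The share in either direction was near that of all genes, and the excess of lower over higher rests on 4 genes against 1. This excess was not kept in each alternative: without KO replicate 6 the split was 3 higher and 2 lower.

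**Figure D1:**
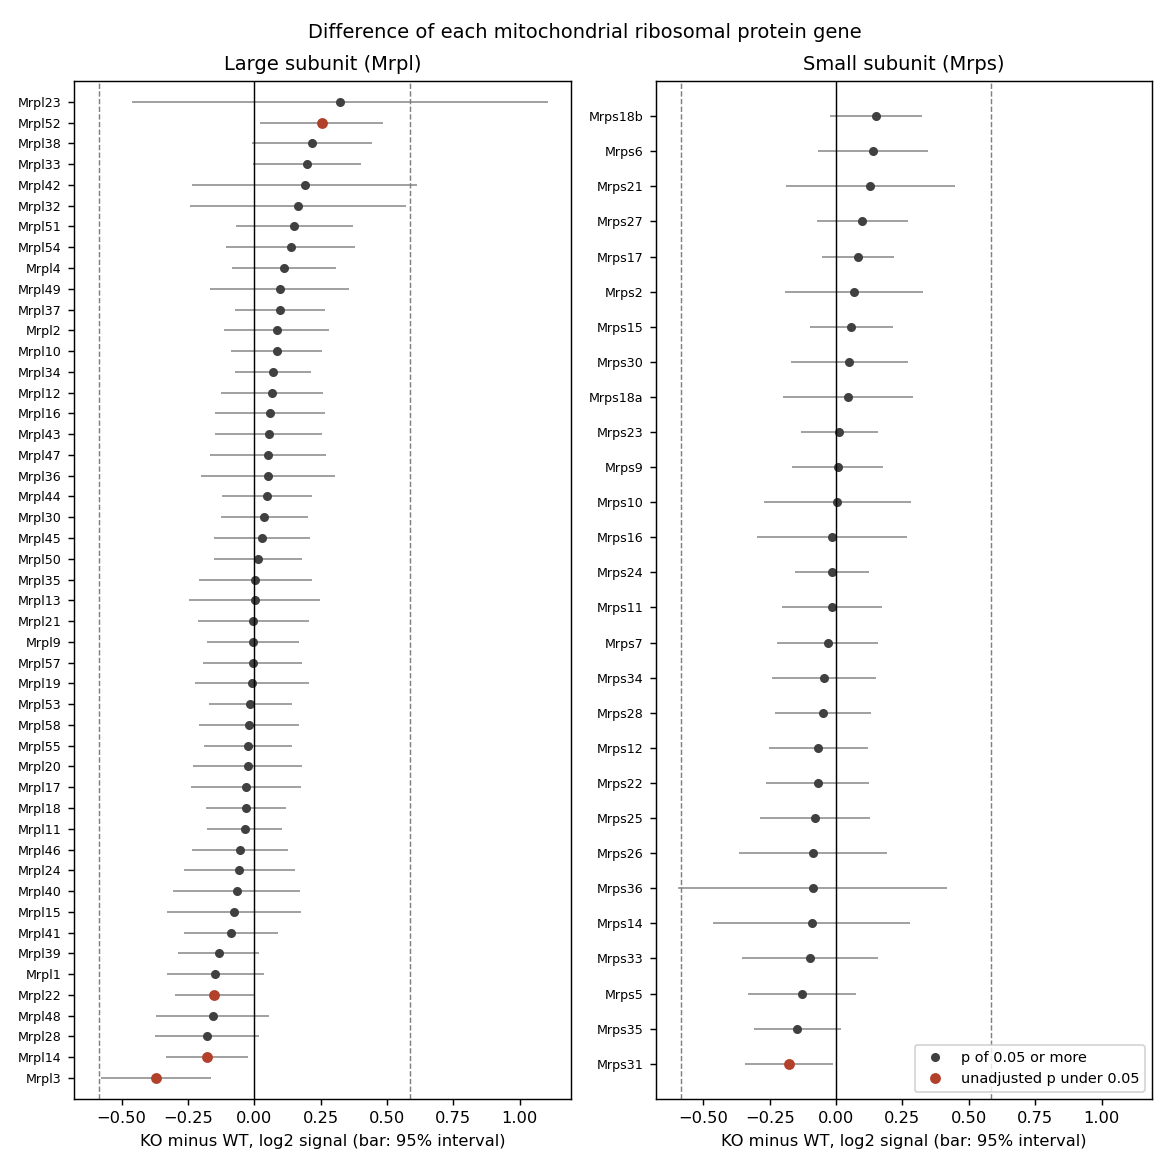
Difference of each of the 76 genes, KO minus WT in log2 signal, with the 95% interval of the limma fit as a bar, the 48 large subunit genes on the left and the 28 small subunit genes on the right. Red points mark the 5 genes at unadjusted p under 0.05, dashed lines mark a 1.5-fold difference, and the intervals of 73 genes stay between those lines.

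How large a difference could have been missed is given by the intervals. The 95% interval of a member's difference reached a median of 0.20 to either side, and for 73 of the 76 genes it lay wholly within a 1.5-fold difference in either direction, as it did for 90.9% of all genes. The other 3 were Mrpl23 (-0.46 to 1.11), Mrps36 (-0.60 to 0.42) and Mrpl42 (-0.23 to 0.61). The intervals are not adjusted for the number of genes tested. Even before such adjustment, differences smaller than the median reach of 0.20 were mostly not detectable with 5 arrays a genotype. After adjustment, larger differences were not called either: Mrpl3, at -0.37 (KO minus WT), had a limma adjusted p of 0.910.

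Mrpl3, a relative of bacterial protein L3 that reaches towards the site where peptide bonds form, had the smallest p of the members. Its log2 signal was 7.92, 7.89, 7.69, 8.05 and 7.82 in KO replicates 6 to 10, against 8.46, 8.02, 8.36, 8.17 and 8.23 in WT replicates 1 to 5. The groups overlapped at 1 point, KO replicate 9 above WT replicate 2. The means were 7.87 ± 0.13 in KO and 8.25 ± 0.17 in WT (SD, n = 5 each), a difference of -0.37 ± 0.09 (SE), or 1.29-fold less in KO (limma unadjusted p = 0.00235, adjusted p = 0.910; 95% interval -0.58 to -0.16). It kept an unadjusted p under 0.05 in each of the 19 alternatives, 10 of which left out an array, with differences between -0.43 and -0.30 and with adjusted p of 0.648 or more. The smallest difference was that with the proliferation marker score as a covariate.

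Proliferation markers were set beside Mrpl3. Of 17 measured markers 16 had a negative difference, as did 57.8% of all genes, and 1, Plk1, a positive one. By limma 0 passed the adjusted threshold and 2 were at unadjusted p under 0.05 (11.8%, against 4.77% of all genes), both with less signal in KO. The mean score was -0.061 ± 0.127 in KO and 0.061 ± 0.191 in WT (SD, n = 5 each), with overlap. The part of proliferation in the difference of Mrpl3 was not tested beyond that covariate.

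The next 3 large subunit genes by p had smaller differences. Mrpl14, which lies on the face that meets the small subunit, had 6.48, 6.59, 6.38, 6.55 and 6.72 in KO tumours and 6.74, 6.66, 6.82, 6.68 and 6.71 in WT tumours. Only KO replicate 10 lay among the WT values, and the difference was -0.18 ± 0.07 (limma unadjusted p = 0.0269). Mrpl52, found only in mitochondria, was the 1 gene of the 5 with more signal in KO, at 8.85, 9.17, 9.20, 9.31 and 8.97 in KO tumours and 8.83, 8.79, 8.64, 9.10 and 8.87 in WT tumours. KO replicates 7, 8 and 9 exceeded each WT tumour, while KO replicates 6 and 10 lay inside the WT range, and the difference was 0.25 ± 0.11 (limma unadjusted p = 0.0349). Mrpl22, which lines the tunnel through which the new protein leaves, had 5.63, 5.67, 5.61, 5.74 and 5.74 in KO and 5.86, 5.85, 5.73, 6.01 and 5.72 in WT, a difference of -0.15 ± 0.07 (limma unadjusted p = 0.0473). WT replicates 3 and 5 lay among the KO values and the other 3 above them.

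Of the small subunit genes 1 was at unadjusted p under 0.05. Mrps31, a protein found only in mitochondria, had 7.60, 7.79, 7.54, 7.80 and 7.79 in KO tumours and 7.91, 7.75, 7.95, 7.82 and 7.98 in WT tumours. Of the WT tumours replicate 2 lay among the KO values, and the difference was -0.18 ± 0.07 (limma unadjusted p = 0.0370). Mrpl14, Mrpl52, Mrps31 and Mrpl22 had an unadjusted p under 0.05 in 17, 13, 11 and 8 of the 20 fits, the reported one included, and the adjusted p of each was 0.910.

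**Figure D2:**
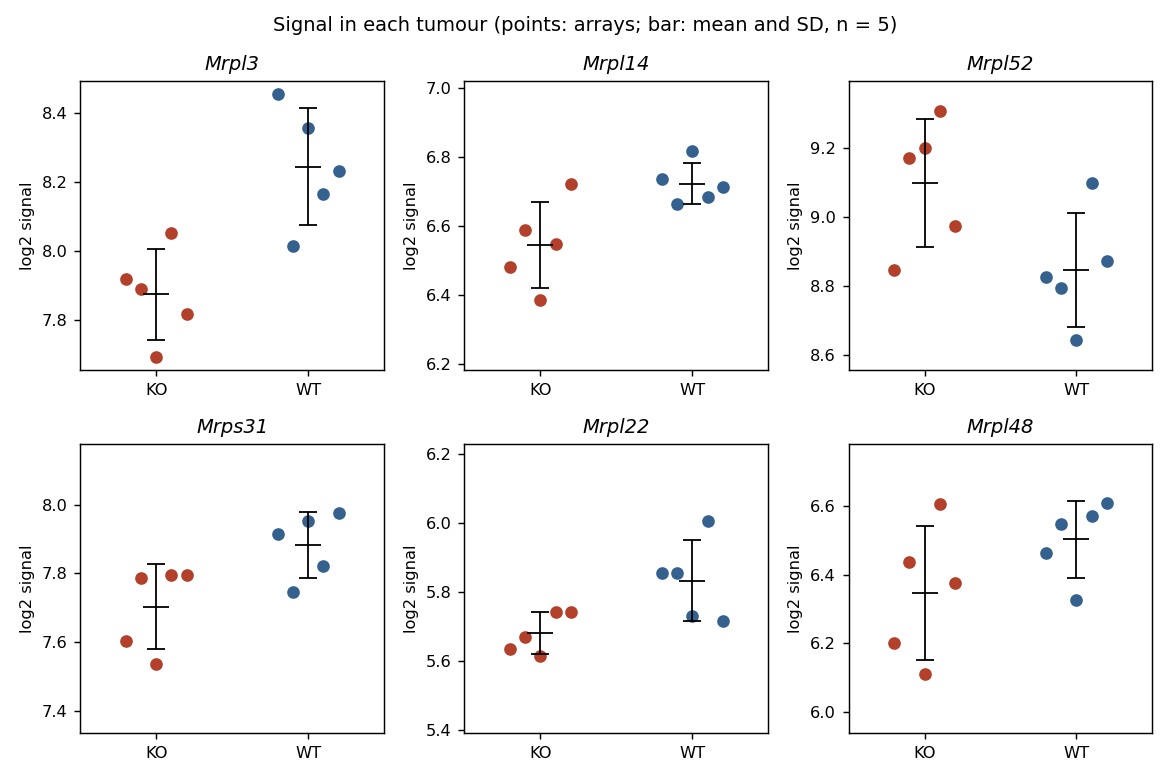
Log2 signal in each KO (red, left) and WT (blue, right) tumour for the 5 genes at unadjusted p under 0.05 and for Mrpl48, with the mean and SD of 5 arrays as a bar and all vertical axes spanning the same range of log2 signal. The genotypes overlap in each gene, by 1 KO tumour in Mrpl3 and Mrpl14 and by 3 in Mrpl48.

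The remaining genes with the smallest p in each subunit were not at unadjusted p under 0.05. In the large subunit these were Mrpl33, related to a bacterial protein (0.20 ± 0.09), and Mrpl38 of the central protuberance, a lobe of the large subunit at the subunit interface (0.22 ± 0.10). In the small subunit they were the mitochondrial protein gene Mrps35 (-0.15 ± 0.07), Mrps18b, a relative of bacterial S18 (0.15 ± 0.08), Mrps6 (0.14 ± 0.09), Mrps5 (-0.13 ± 0.09) and Mrps17 (0.08 ± 0.06), the last 3 of bacterial families. Unadjusted limma p-values of these 7 ran from 0.0536 for Mrpl33 to 0.215 for Mrps17.

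Mrpl48, another protein of the central protuberance, is the member nearest to the deleted gene. In the order of measured genes on chromosome 7 in assembly GRCm38.p6 it is the third from Ucp2, and the next members on that chromosome, Mrpl17, Mrps11 and Mrpl46, are 206, 212 and 213 measured genes away. Its signal was 6.20, 6.44, 6.11, 6.60 and 6.38 in KO tumours and 6.46, 6.55, 6.33, 6.57 and 6.61 in WT tumours. KO replicates 6 and 8 lay below each WT tumour and the other 3 within the WT range. The difference was -0.16 ± 0.10 (limma unadjusted p = 0.134, adjusted p = 0.910). It came to -0.22 without KO replicate 9, the 1 alternative with an unadjusted p under 0.05, and to -0.099 without KO replicate 8. Whether the segment around the Ucp2 allele carries sequence of another strain was not tested.

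Members of the stalk, the central protuberance, the tunnel exit and the core had differences of both signs. In the stalk, where translation factors dock, the differences were 0.08 ± 0.08 for Mrpl10, -0.04 ± 0.06 for Mrpl11 and 0.07 ± 0.09 for Mrpl12. The central protuberance held Mrpl18 (-0.03 ± 0.07), Mrpl40 (-0.07 ± 0.11) and Mrpl46 (-0.06 ± 0.08) beside Mrpl38 and Mrpl48. Around the exit of the tunnel Mrpl24 differed by -0.06 ± 0.09, Mrpl39 by -0.13 ± 0.07, Mrpl44, with a fold related to ribonuclease III, by 0.05 ± 0.08 and Mrpl45, which holds the ribosome to the inner membrane, by 0.03 ± 0.08. Mrpl2, Mrpl4 and Mrpl16, which like Mrpl3 belong to bacterial families of the large subunit core, had differences of 0.08 ± 0.09, 0.11 ± 0.09 and 0.06 ± 0.09, of the other sign than Mrpl3. Mrpl58, a hydrolase that frees stalled ribosomes, differed by -0.02 ± 0.09.

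In the small subunit Mrps12, which borders the decoding site, differed by -0.07 ± 0.08, Mrps7 of the head by -0.03 ± 0.09, Mrps9, which touches the tRNA, by 0.0053 ± 0.0775, Mrps11 of the platform by -0.02 ± 0.09 and the mitochondrial protein gene Mrps27 by 0.10 ± 0.08. Some symbols do not give the place of the protein. Mrps30 (0.05 ± 0.10) and Mrps18a (0.05 ± 0.11) encode proteins that sit in the large subunit, and Mrps36 (-0.09 ± 0.23) encodes a part of the 2-oxoglutarate dehydrogenase complex. With the first 2 counted as large and Mrps36 left out, the medians were 0.0092 for the large and -0.017 for the small subunit. The 38 members outside the naming rule ran from -0.18 for Mrpl28 to 0.17 for Mrpl32, 18 positive and 20 negative, with the smallest unadjusted p at 0.0712.

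Mrpl numbers up to 36 and Mrps numbers up to 21 follow the names of bacterial proteins, while higher numbers do not, although some of those proteins, such as Mrps24, have bacterial relatives too. Among large subunit genes 13 of 27 with a bacterial number had a positive difference and 12 of 21 with a higher number, with medians of -0.0037 and 0.028. Among small subunit genes the counts were 9 of 15 and 3 of 13, with medians of 0.0053 and -0.069. These groups were described after the values were seen, and the split was not tested.

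The subunits were compared in each tumour by a score, the mean over the genes of a subunit of the signal minus the gene's mean over the 10 arrays. The large subunit score was -0.082, 0.051, -0.048, 0.070 and 0.046 in KO replicates 6 to 10 and 0.056, -0.053, -0.144, 0.059 and 0.045 in WT replicates 1 to 5. The small subunit score was -0.100, -0.0045, -0.091, 0.075 and 0.088 in KO and 0.0031, -0.021, -0.111, 0.093 and 0.069 in WT. KO replicates 6 and 8 and WT replicates 2 and 3 were below 0 in both subunits, so tumours of both genotypes stood at the low end. The large minus small score averaged 0.014 ± 0.039 in KO and -0.014 ± 0.038 in WT (SD, n = 5 each), a difference of 0.028 that is smaller than either SD, and the genotypes overlapped.

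**Figure D3:**
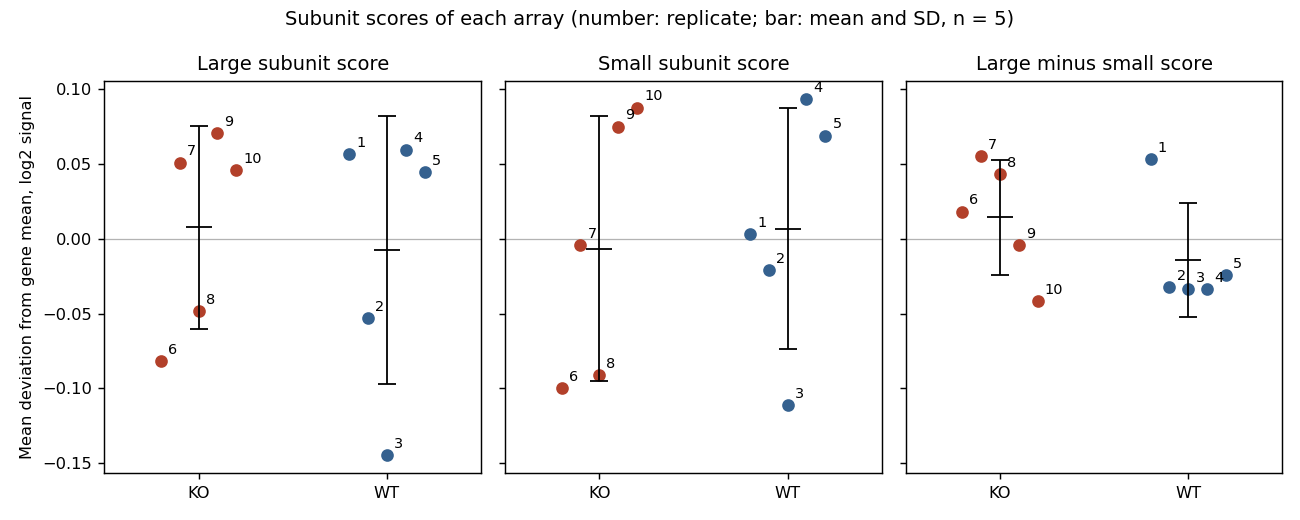
Score of the large subunit genes, of the small subunit genes and of large minus small in each KO (red, left) and WT (blue, right) array, with the replicate number beside each point and the mean and SD of 5 arrays as a bar. In all 3 panels the genotypes overlap, and WT replicate 3 is lowest in both subunits.

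The spread from tumour to tumour was shared by most members. Taking each array as a deviation from its genotype mean, which removes the genotype difference, the mean Pearson r over all pairs of members was 0.261, against 0.0065 over all pairs of the 23111 genes and 0.0063 over those of the 13907 genes above the guide to background. Within the large subunit it was 0.270, within the small 0.237, and between large and small subunit genes 0.260, so members of different subunits followed each other about as closely as members of the same one. The Nduf genes, most of which encode subunits of complex I and some its assembly factors, such as Ndufaf1, had a mean of 0.202. Cytosolic ribosomal protein genes were chosen by symbol, Rpl or Rps with a number, which takes in related genes such as Rpl3l, Rpl10l and Rpl39l. These 60 genes had 0.059, but only 37 of them exceeded the guide to background. These values rest on 10 arrays that were normalized together and describe these tumours only. Normalization equalises the arrays and so holds the mean r over all gene pairs near 0. That mean is therefore no measure of how unusual the value of the members is.

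Of the 76 members 72 had a positive correlation with the mean of the other 75, with a median of 0.55. Mrpl15, of a bacterial family, was closest to the others (0.90), followed by Mrpl21 (0.89) and Mrps7 (0.88), all chosen for this value. Mrpl21 had 5.04, 5.40, 5.18, 5.37 and 5.46 in KO and 5.37, 5.22, 5.14, 5.46 and 5.28 in WT, low in KO replicates 6 and 8 and in WT replicates 2 and 3. Its mean signal of 5.29 was close to the guide to background of 5.14, with KO replicate 6 below the guide and WT replicate 3 at it. Mrps7 had 7.63, 7.81, 7.68, 7.87 and 7.99 in KO and 7.80, 7.80, 7.66, 7.89 and 8.00 in WT, low in KO replicates 6 and 8 and in WT replicate 3. Without WT replicate 3 the correlations of Mrpl15, Mrpl21 and Mrps7 were 0.85, 0.90 and 0.84. The 4 members with a correlation under 0 were Mrpl23 (-0.13), Mrps9, Mrps14 and Mrps26, but without WT replicate 3 Mrpl23 (0.21) and Mrps26 (0.43) were positive, and 7 members were negative. Mrpl3 was at 0.12, or 0.42 without that array, Mrpl14 at 0.23, or 0.69, and Mrpl48 at 0.80, or 0.75.

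WT replicate 3 was the array with the lowest level of the set. It held the lowest of the 10 values in 24 of the 76 members (31.6%), against 9.45% of all genes, and 64 of the 76 lay below their mean in it. KO replicate 8 was lowest in 17 (22.4%, against 10.8% of all genes), and KO replicate 9 was lowest in 0 (0%, against 6.13%). Low values in WT replicate 3 were not particular to the members. The Nduf score was also lowest there (-0.092). So were those of other mitochondrial ribosome proteins (-0.109), translation factors and related genes (-0.112), tRNA charging (-0.095) and mitochondrial RNA and DNA synthesis (-0.126), lists described below. Scores of assembly factors and of cytosolic ribosomal protein genes were lowest in KO replicates 8 and 7. WT replicate 3 also had the highest array median (5.93) and the highest score of B and plasma cell markers (1.29, where the other arrays ran from -1.06 to 0.74), and the lowest score of macrophage markers (-0.32). The part of these in the low values of the members was not tested. Without WT replicate 3 the mean r between members was 0.191, and 7 members (9.21%, against 5.63% of all genes in that fit) were at unadjusted p under 0.05, all with less signal in KO. These were Mrpl1, Mrpl3, Mrpl22, Mrpl28, Mrpl39, Mrps33 and Mrps35, while Mrpl14, Mrpl52 and Mrps31 were not among them, with differences of -0.15, 0.20 and -0.16.

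**Figure D4:**
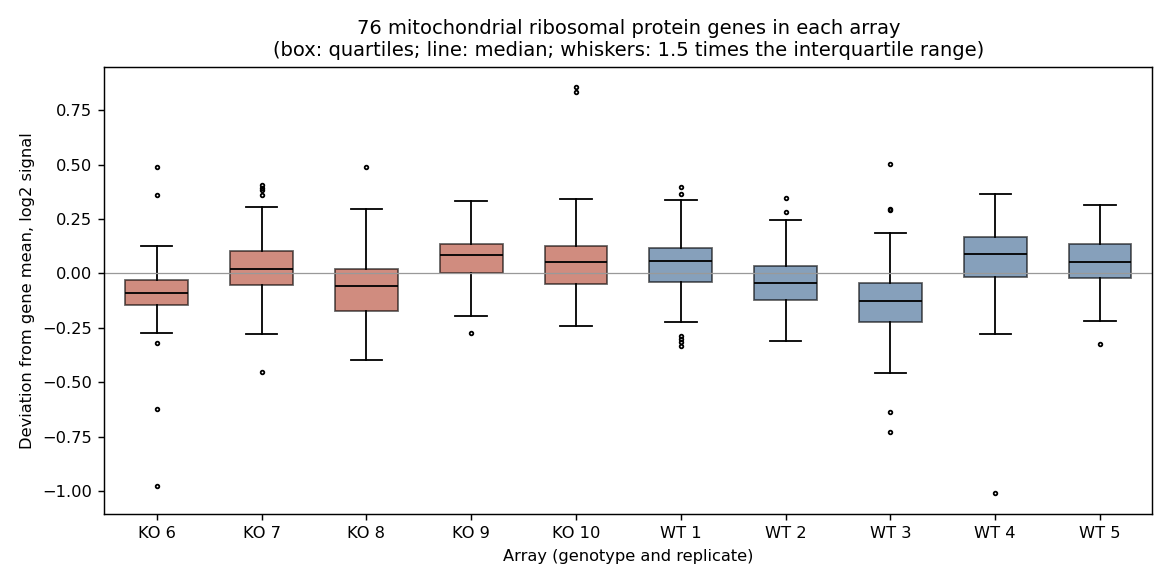
Deviation of the 76 genes from their own mean over the 10 arrays, in log2 signal, as 1 box for each KO (red, left) and WT (blue, right) array. The medians run from -0.13 in WT replicate 3 to 0.089 in WT replicate 4, and arrays of both genotypes lie above and below 0.

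Single members differed in how steady they were. Mrps17, Mrps24, which is related to bacterial S3, and Mrpl11 had the smallest SD within genotype, at 0.078, 0.082 and 0.083, and Mrpl23, Mrps36 and Mrpl42 the greatest, at 0.652, 0.416 and 0.345, where the median of all genes was 0.149. Mrpl23, whose protein lies beside the tunnel exit, had 4.30, 5.64, 5.77, 5.36 and 6.14 in KO tumours and 5.62, 4.97, 5.79, 4.27 and 4.96 in WT tumours. Its values straddled the guide to background of 5.14 in both genotypes, and its difference was 0.32 ± 0.36, or from 0.11 without WT replicate 4 to 0.61 without KO replicate 6. That of Mrpl42 ran from 0.032 to 0.30 with single arrays left out. Mrps36 had 3.71, 3.88, 4.16, 4.52 and 5.17 in KO and 4.43, 4.25, 4.34, 4.52 and 4.34 in WT, all but KO replicate 10 under the guide. Mrpl42, found only in mitochondria, had 6.19, 6.47, 5.76, 5.96 and 6.41 in KO and 6.39, 6.07, 5.34, 6.01 and 6.02 in WT, lowest in WT replicate 3.

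Other genes of mitochondrial protein synthesis gave 0 calls at adjusted p under 0.05. Of 5 measured genes for other proteins of the mitochondrial ribosome or bound to it, 0 were at unadjusted p under 0.05, with Chchd1 (-0.23 ± 0.11) and Ptcd3 (-0.19 ± 0.10), both of the small subunit, and Oxa1l, which inserts new proteins into the inner membrane (0.17 ± 0.10), first. Of 28 assembly factors 3 were (10.7%, against 4.77% of all genes), all with less signal in KO, and in 2 of the 28 the genotypes did not overlap, against 0.835% of all genes. The 3 were Ybey, an endonuclease (-0.25 ± 0.08), Grsf1, an RNA-binding protein of mitochondrial RNA granules (-0.20 ± 0.07), and Ngrn (-0.21 ± 0.09). Of 20 translation factors and related genes, such as the tRNA-modifying enzyme Trmu, 2 were (10%), both with less signal in KO. They were Lrpprc, which stabilises mitochondrial mRNA (-0.18 ± 0.08), and the elongation factor Guf1 (-0.20 ± 0.09). None of 19 genes for charging mitochondrial tRNAs, 14 genes of mitochondrial RNA and DNA synthesis and 10 nuclear regulators was, and Nrf1 (-0.10 ± 0.07) had the smallest p of the regulators. The medians of these 6 lists lay between -0.060 for translation factors with related genes and -0.0034 for the other ribosomal proteins, against -0.019 for all genes.

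Set beside these, the Nduf genes had a median difference of -0.0062, with 21 of 44 positive, against 42.2% of all genes. At unadjusted p under 0.05 were 2 (4.55%, against 4.77% of all genes), Ndufa8 (0.27 ± 0.09) and Ndufv3 (0.28 ± 0.10). Cytosolic ribosomal protein genes had a median of -0.11, with 14 of 60 positive and 4 (6.67%) at unadjusted p under 0.05, led by Rps7 (-0.29 ± 0.08). Of these 60 genes 37 exceeded the guide to background. The difference in median between the mitochondrial and the cytosolic ribosomal genes was not tested.

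Cell type markers were compared for the same arrays. The epithelium score was 0.028 ± 0.076 in KO and -0.028 ± 0.194 in WT, and the smooth muscle score was 0.199 ± 0.522 in KO and -0.199 ± 0.372 in WT (SD, n = 5 each). Of 10 macrophage markers 8 were at unadjusted p under 0.05 (80%, against 4.77% of all genes), all higher in KO (against 2.22% of all genes). Their score ran from -0.035 to 0.404 in KO and from -0.320 to -0.089 in WT. T cell markers had 2 of 7 (28.6%), both higher in KO, and neutrophil markers 1 of 6 (16.7%), also higher. Of the T cell markers 6 had a positive and 1, Cd3d, a negative difference, and of the neutrophil markers 3 and 3. Fibroblast markers had 1 of 8 (12.5%), Col1a1, lower in KO (-0.25 ± 0.10), against 2.55% of all genes lower. Markers of epithelium, smooth muscle, endothelium, and B and plasma cells had 0. The score of all 76 ribosomal genes was 0.0022 ± 0.0737 in KO and -0.0022 ± 0.0845 in WT, and its values overlapped. The part of cell type in the members' values was not tested, apart from the epithelium and proliferation covariates. With the epithelium score the medians were 0.0055 for the large and -0.024 for the small subunit. In that fit 4 members were at unadjusted p under 0.05 (5.26%, against 4.62% of all genes), all lower in KO. With the proliferation score the medians were 0.039 and 0.0012. There 5 members were under that limit (6.58%, against 3.21% of all genes), 3 higher and 2 lower.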

How the data were processed

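Per the labels' protocols, RNA of each tumour sample was turned into biotin-labelled DNA and read on 1 array in 1 colour. The authors deposited 1 log2 signal per row and array. RMA and Partek were used, per the submitters' processing notes, whose versions, like the genome build, were not given in the sources used here. That the log base is 2 was read from the values. RMA equalises arrays, so a shift of all genes one way could not be seen. Detection calls were not used here.

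Values were used as deposited. The platform annotation gave 23111 of 23747 rows exactly 1 symbol, and 636 rows stayed unnamed. KO was compared with WT by lmFit and eBayes of limma 3.58.1 in R 4.3.3, without covariates, and p-values were adjusted by Benjamini-Hochberg over all named genes. The code was tested on simulated data. Intervals are at the 95% level. Members and lists were chosen with earlier results of these data known. Members were named by rule: the 6 smallest p per subunit, those at unadjusted p under 0.05 or without overlap, the 3 most and 3 least variable, and those with a known place or role. Mrpl1, Mrpl15, Mrpl17, Mrpl21, Mrpl28, Mrpl32, Mrpl43, Mrpl47, Mrps14, Mrps26 and Mrps33 were added after their values were seen. Promoter motifs and divergent starts were looked up in RefSeq tables of GRCm38.p6, and the 7 motifs were chosen after a first look at their shares. Replicate numbers differ between genotypes and pair no samples. Correlations between arrays ran from 0.965 to 0.993, and 0 pairs were identical. The number of arrays limits the precision. Alternatives left out each array or dim genes, normalized again, changed the variance model or weights, fitted all rows, added marker scores as covariates, or sorted members by their place in the ribosome.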

Additional observations from a re-analysis of the deposited data

Results flagged for a closer look

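In 2 of 82 groups of 5 looked at, covering the named members and the subunit scores, 1 sample stood apart from the other 4 by more than 0.71 of the group's range. Chance gives about 1 in 20. Mrps18a, whose protein sits in the large subunit, had 6.94 in WT replicate 3, where the other WT tumours ran from 7.46 to 7.54. The large minus small subunit score was 0.053 in WT replicate 1, where the other WT tumours ran from -0.034 to -0.024.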

How the results depend on the processing

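The count of members past the adjusted threshold stayed at 0 in all 19 alternatives. The count at unadjusted p under 0.05, 5 as reported, was 3 with an intensity trend and robust estimation (4.60% of all genes in that fit). With single arrays left out it ran from 1 (without KO replicate 8, 3.57% of all genes) to 7 (without WT replicate 3, 5.63%). It was 3 without KO replicate 7 (3.18%), WT replicate 1 (4.86%) or WT replicate 2 (5.89%). Of these members 3 were higher and 2 lower without KO replicate 6, and likewise with the proliferation score as a covariate. The split was 3 and 3 without WT replicate 5 and with cyclic loess normalization. In the other alternatives more were lower than higher, up to 7 against 0 without WT replicate 3. The median difference ran from -0.027 to 0.036 for the large and from -0.057 to 0.012 for the small subunit with single arrays left out, and the large minus small score difference from 0.018 to 0.045. The mean r between members, with arrays left out after the data were seen, ran from 0.191 (without WT replicate 3) to 0.288, and the r of Mrps11 with Mrpl46 from -0.56 to -0.19. Small differences changed sign. With single arrays left out the range was -0.0038 to 0.14 for Mrpl16, -0.063 to 0.0077 for Mrpl18, -0.11 to 0.012 for Mrpl24, -0.12 to 0.0039 for Mrpl40, -0.021 to 0.072 for Mrpl45, -0.11 to 0.012 for Mrpl46, -0.063 to 0.034 for Mrpl58, -0.061 to 0.020 for Mrps11, -0.063 to 0.087 for Mrps18a, -0.048 to 0.013 for Mrps24, -0.011 to 0.11 for Mrps30, -0.31 to 0.056 for Mrps36, -0.081 to 0.010 for Mrps7 and -0.033 to 0.065 for Mrps9. Quantile normalizing again gave -0.0045 for Mrpl45 and -0.015 for Mrps9, array weights 0.019 for Mrpl58 and 0.016 for Mrps11, the epithelium score as a covariate 0.0043 for Mrpl58, and the proliferation score 0.018 for Mrpl18, 0.038 for Mrpl58 and 0.026 for Mrps11. The cause was not tested. Leaving out dim genes removed Mrps36, and leaving out pseudogenes among the members was not run, since no member symbol marks one. No paired analysis was possible because the genotypes share no replicate number.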
